A study of Mus musculus with 12 samples.

Results

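The genes described here encode the machinery that copies DNA: 45 of the 23478 genes in the count table. They were chosen by name as origin licensing, fork, polymerase and nucleotide supply genes, with earlier results of these data known. All 45 were found in the table and all 45 passed the filter on low counts, which left 15761 genes for testing. Their levels came from RNA-seq of whole lungs of newborn C57/Bl6 mice, cleared of bronchoalveolar lavage fluid, in 12 libraries of paired 75-base reads. Every pup received an intraperitoneal injection on day 0, either 25 mg/kg of aurothioglucose (ATG, a gold drug that inhibits thioredoxin reductase) or saline. Pups then breathed more than 95% oxygen for 72 h (hyperoxia) or room air.

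The 4 groups were ATG hyperoxia, saline hyperoxia, ATG room air and saline room air, with 3 libraries each. A library is called a lung below, although the labels do not say whether it held the lungs of a single pup. The labels give neither the sex nor the litter of the pups, so p-values measure only the spread between these samples. Total counts per library ran from 14331749 to 20486735, and the lowest count of any of the 45 genes in any library was 28. Levels are given below as CPM, read counts brought to a shared depth by TMM scaling. The summed levels of 5 type 2 cell markers were 9324 to 12582 CPM per library and those of 5 endothelial markers 2070 to 2670 CPM. None of these genes was at 0 in any library, nor were 5 type 1 cell markers, whose sums are given further down.

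Before a cell copies its DNA, the origin recognition complex (ORC), Cdc6 and Cdt1 load rings of Mcm2 to Mcm7 on origins, and Cdc45 and the GINS complex then turn each ring into a working helicase. DNA polymerase alpha with primase starts each strand, the Rfc complex loads the sliding clamp Pcna, and polymerases delta and epsilon extend the strands. Most of these genes are transcribed around the entry into S phase under the control of E2F factors, which the retinoblastoma protein holds in check until cyclin-dependent kinases release them. The newborn lung grows by cell division while its air spaces are being partitioned, and high oxygen in newborn rodents is a standard model of impaired lung growth.

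Promoter windows of 300 bases, from 250 bases before to 50 bases after a start site, were taken from RefSeq (GRCm38.p6) and matched 38 of the 45 genes. For 9 of the 38 every start site used lay more than 50 bases from the outer edge of the RefSeq gene. The distance reached 3749 bases for Orc1. Of these 9 genes, those whose windows do not cover the outer edge were Dut, Cdc6, Rfc1 and Orc1. The windows of Mcm6, Pola1, Cdt1 and Pcna are shown, 5′ to 3′ on the strand of the gene. They were chosen for the number of E2F-type letters they hold and for how the genes behaved, and capitals mark the E2F-type letters TTCCCGC or TTCGCGC or TTGCCGC or TTGGCGC on either strand, where matches can overlap. Mcm6 (chr1:128359656-128359955, minus strand) had 5 matches and Pola1 (chrX:93632106-93632405, minus strand) 4, and both genes fell under hyperoxia after either injection. Cdt1 (chr8:122567765-122568064, plus strand) had 2 matches and passed the test in neither comparison. Pcna (chr2:132253131-132253430, minus strand) had none in this window and fell in both comparisons. The start site used was the outer edge of the RefSeq gene for Mcm6, Cdt1 and Pcna and lay 232 bases inside it for Pola1. Against the start of the gene in GENCODE, the site of Mcm6 lay 41 bases before it and that of Pcna 134 bases inside it.
Mcm6: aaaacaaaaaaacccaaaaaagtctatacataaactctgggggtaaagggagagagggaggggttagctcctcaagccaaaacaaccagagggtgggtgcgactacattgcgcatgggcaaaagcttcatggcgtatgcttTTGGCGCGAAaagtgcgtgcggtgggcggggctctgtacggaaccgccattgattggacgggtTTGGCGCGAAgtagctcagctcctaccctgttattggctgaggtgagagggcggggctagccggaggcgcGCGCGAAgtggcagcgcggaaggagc
Pola1: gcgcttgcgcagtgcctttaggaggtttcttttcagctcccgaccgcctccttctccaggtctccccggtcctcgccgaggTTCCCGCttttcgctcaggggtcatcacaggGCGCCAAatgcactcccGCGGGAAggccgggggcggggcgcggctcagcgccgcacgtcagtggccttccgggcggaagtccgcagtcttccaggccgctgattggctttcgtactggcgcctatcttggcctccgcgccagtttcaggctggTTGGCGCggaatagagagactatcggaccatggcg
Cdt1: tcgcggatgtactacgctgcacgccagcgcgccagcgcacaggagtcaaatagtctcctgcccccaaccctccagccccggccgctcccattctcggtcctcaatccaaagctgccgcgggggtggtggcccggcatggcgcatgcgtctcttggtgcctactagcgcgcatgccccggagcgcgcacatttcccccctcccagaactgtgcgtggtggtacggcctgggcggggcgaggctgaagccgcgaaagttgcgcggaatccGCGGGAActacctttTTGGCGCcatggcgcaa
Pcna: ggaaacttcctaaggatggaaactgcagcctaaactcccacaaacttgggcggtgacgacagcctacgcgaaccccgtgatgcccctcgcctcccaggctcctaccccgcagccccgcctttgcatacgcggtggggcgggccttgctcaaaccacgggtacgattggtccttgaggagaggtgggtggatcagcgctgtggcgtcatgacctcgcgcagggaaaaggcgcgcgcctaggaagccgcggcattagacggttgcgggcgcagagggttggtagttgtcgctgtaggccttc

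E2F-type letters stood in at least 1 window of 24 of the 38 DNA replication genes (63.2%), against 18.2% of the 11573 tested genes that had a window. At least 2 matches were found for 28.9% of the DNA replication genes and 2.6% of the tested genes. The NF-Y-type letters CCAAT, searched on both strands, were found for 60.5% of the DNA replication genes and 42.0% of the tested genes. Among 17 mitosis genes, given for comparison, E2F-type letters were found for 17.6% and CCAAT for 88.2%. CCAAT was the more frequent in the tested genes as well. At least 1 E2F-type match stood in 12 of 18 genes with a window that fell after both injections (66.7%) and in 6 of 10 that passed in neither comparison (60%). At least 2 matches stood in 7 of those 18 (38.9%) and 1 of those 10 (10%), and CCAAT in 12 of the 18 (66.7%) and 5 of the 10 (50%). No test of these differences was made. The median GC content of the windows was 60.7% for the DNA replication genes and 60% for the tested genes. A match says only that the letters are present, and the window does not cover other regulatory sequence.

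**Figure D1:**
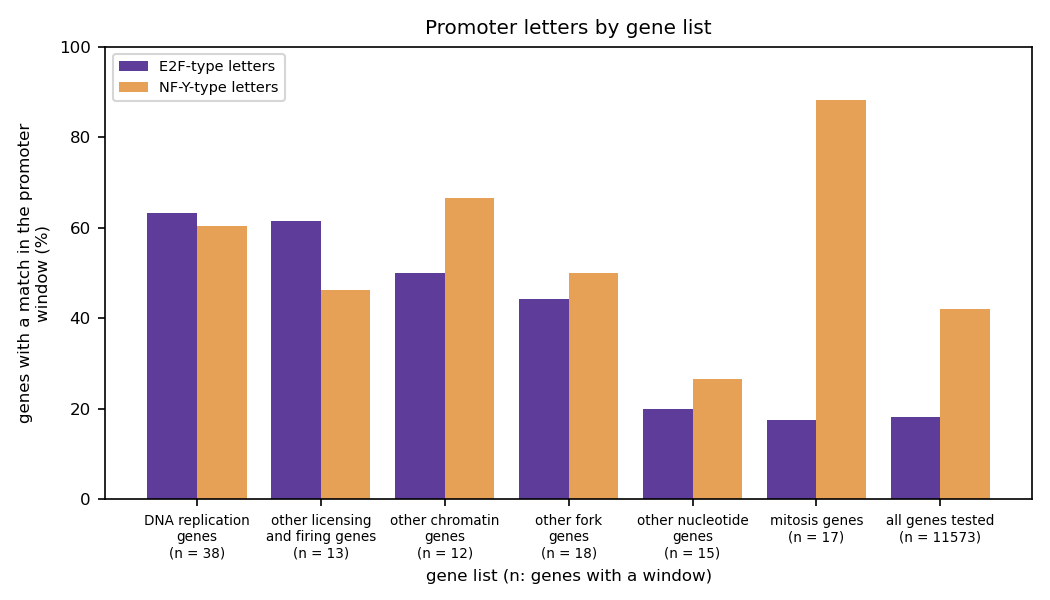
Share of genes (%, y axis) with at least 1 match to the E2F-type or the NF-Y-type letters in a promoter window of 300 bases, for each gene list on the x axis with the number of genes that had a window. The DNA replication genes reach 63.2% for E2F-type letters against 18.2% of all tested genes, while mitosis genes reach 88.2% for NF-Y-type letters.

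Hyperoxia lowered the DNA replication genes after both injections. After ATG, 30 of the 45 genes fell, none rose and 15 did not pass an adjusted p of 0.05 (edgeR's quasi-likelihood test, Benjamini-Hochberg over all 15761 genes). Among all tested genes, 6.25% fell and 5.41% rose in that comparison. After saline, 24 fell, none rose and 21 did not pass, where 4.5% of all tested genes fell and 4.7% rose. The median log2 fold change of the 45 genes was -0.85 after ATG and -0.65 after saline, and the median over all tested genes was 0.00 in both. All 45 estimates were negative in each comparison. The 3 hyperoxia lungs lay below all 3 room air lungs for 42 genes after ATG, against 13.9% of all tested genes, and for 35 genes after saline, against 14.9%.

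Of the genes that fell, 21 did so after both injections, which is 21 of the 30 after ATG and 21 of the 24 after saline. They were Mcm2 to Mcm6, Mcm10, Cdc45, Gins2, Pcna, Pola1, Prim1, Pole, Pole2, Fen1, Lig1, Rrm1, Rrm2, Tk1, Ung, Chaf1a and Chaf1b. Past the threshold after ATG but not after saline were Orc6, Cdc6, Mcm7, Gins1, Gins4, Rfc1, Pold1, Tyms and Dut, and after saline but not after ATG were Rfc3, Pold2 and Rpa2. A gene past the threshold after 1 injection only is not thereby shown to differ between injections, and the test of that difference is given further down. DESeq2 called 34 and limma-voom 30 of the 45 genes lower after ATG, and DESeq2 29 and limma-voom 24 after saline.

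The count after saline depended on single libraries. It was 9 without saline hyperoxia 1, 12 without saline hyperoxia 3, 10 without saline room air 3 and 15 without saline room air 1 or saline room air 2. Calls over all tested genes became fewer as well. With every library 709 fell, against 424, 344, 330, 447 and 424 without saline hyperoxia 1, saline hyperoxia 3, saline room air 3, 1 and 2. In the same order the median log2 fold change of the 45 genes was -0.59, -0.62, -0.55, -0.66 and -0.71. Over all alternatives 8 of the 24 calls after saline were kept (Mcm2, Mcm3, Mcm6, Gins2, Pole, Lig1, Ung and Chaf1a), and each of the other calls was lost under at least 1 of them. Of the 30 calls after ATG 23 were kept, and those lost under at least 1 alternative were Orc6, Gins1, Gins4, Rfc1, Fen1, Rrm1 and Chaf1b.

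**Figure D2:**
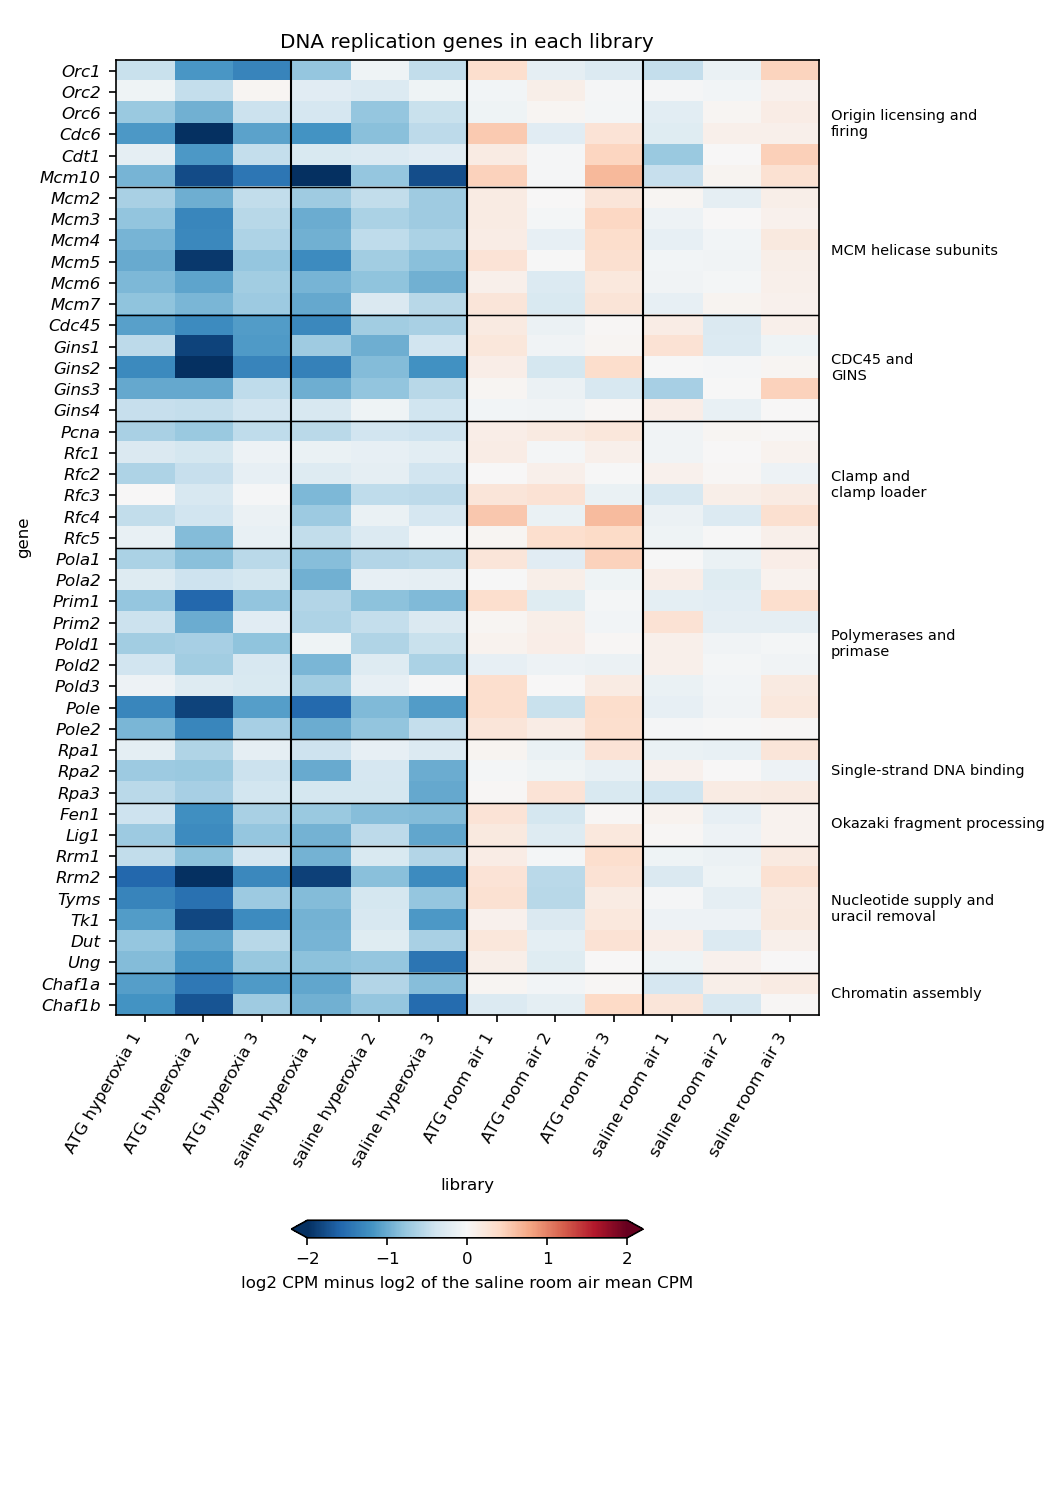
Level of each of the 45 DNA replication genes (rows, by role) in each of the 12 libraries (columns), as log2 CPM minus the log2 of the mean CPM of the saline room air lungs, on a colour scale that ends at -2 and 2. The 6 hyperoxia libraries are blue for nearly all genes, deepest for Mcm10, Cdc6, Gins2, Pole and Rrm2 and palest for Orc2 and Rfc1, and ATG hyperoxia 2 is the deepest column.

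Summed over the 45 genes, the ATG hyperoxia lungs held 925, 731 and 1011 CPM and the saline hyperoxia lungs 858, 1076 and 957 CPM, against 1676, 1385 and 1756 CPM in ATG room air lungs and 1426, 1436 and 1648 CPM in saline room air lungs. No hyperoxia lung reached the lowest room air lung. Within groups the genes moved together by library: ATG hyperoxia 2 was the lowest of its group for 40 of the 45 genes, saline hyperoxia 2 the highest for 29, ATG room air 2 the lowest for 30 and saline room air 3 the highest for 31. The median SD of log2 levels within a group was 0.254 for the DNA replication genes in ATG hyperoxia lungs, 0.246 in saline hyperoxia lungs, 0.198 in ATG room air lungs and 0.169 in saline room air lungs, while over all tested genes it ran from 0.154 to 0.182. In whole-lung RNA, fewer cells in S phase and less of each transcript per cell cannot be told apart.

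Muscle transcripts stood out in some libraries, and where they came from was not tested. The summed level of 7 cardiomyocyte markers was 6624 CPM in ATG hyperoxia 2 and 2940 CPM in saline hyperoxia 2, and lay between 387 and 913 CPM in the remaining 10. Saline hyperoxia 1 held 354 CPM of 6 skeletal muscle markers, against 20.5 to 62.0 CPM elsewhere, where Mylpf was at 0 in 1 library. Without ATG hyperoxia 2 and saline hyperoxia 2, 26 of the 45 genes fell after ATG with a median of -0.76, and 26 after saline with a median of -0.74. When saline hyperoxia 1 was left out as well, 26 fell after ATG with a median of -0.75 and 14 after saline with a median of -0.58.

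Markers of thymocytes, which divide rapidly, also differed between libraries. The summed level of 9 of them was 4.37 to 8.42 CPM in ATG hyperoxia lungs, 8.80, 91.4 and 37.9 CPM in saline hyperoxia lungs, 7.94 to 20.2 CPM in ATG room air lungs and 8.76 to 16.3 CPM in saline room air lungs. Rag2, Ptcra, Dntt and Arpp21 were at 0 in at least 1 library. Saline hyperoxia 2, the library with most thymocyte transcripts, was also the saline hyperoxia lung with the highest replication sum. With the thymocyte level as a covariate, 27 of the 45 genes fell after ATG with a median of -0.76, and 26 after saline with a median of -0.87. The 8 erythroid markers summed to 59.99 to 563 CPM in ATG hyperoxia lungs, 112 to 210.4 CPM in saline hyperoxia lungs, 203 to 464 CPM in ATG room air lungs and 204 to 223 CPM in saline room air lungs, with Hbb-bt at 0 in all 12 libraries and Hba-a1 in 9. The 6 neutrophil markers summed to 191 to 221 CPM in ATG hyperoxia lungs, 63.3 to 228 CPM in saline hyperoxia lungs, 95.2 to 185 CPM in ATG room air lungs and 87.5 to 125 CPM in saline room air lungs, so the groups were separate after ATG and overlapped after saline, with Elane at 0 in some libraries. The 5 type 1 cell markers summed to 1076 to 1231 CPM in ATG hyperoxia lungs, 959 to 1186 CPM in saline hyperoxia lungs, 870.3 to 1099.6 CPM in ATG room air lungs and 756 to 946 CPM in saline room air lungs, overlapping after ATG and separate after saline. The 6 B cell markers summed to 15.8 to 44.6 CPM over all libraries. The part of the erythroid, neutrophil and type 1 cell transcripts in the result was not tested. By sex-linked transcripts, 2 of 3 ATG hyperoxia, 1 of 3 saline hyperoxia, 1 of 3 ATG room air and 3 of 3 saline room air lungs were called male, and with sex as a covariate 27 genes fell after ATG and 24 after saline.

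Of the licensing and firing genes, 3 of 6 fell after ATG and 1 of 6 after saline. Mcm10, which binds the activated helicase and is needed to start unwinding, showed the largest fall of the 45 genes after saline. It (chr2:4990724-5012791) stood at 5.35, 2.97 and 3.74 CPM in ATG hyperoxia lungs against 14.1, 10.1 and 16.1 CPM in ATG room air lungs, and at 2.37, 5.99 and 2.98 CPM in saline hyperoxia lungs against 7.46, 10.6 and 12.6 CPM in saline room air lungs. Every hyperoxia lung was below every room air lung. The log2 fold change by edgeR was -1.74 (SE 0.33, adjusted p = 0.00349) after ATG and -1.44 (SE 0.34, adjusted p = 0.015) after saline, and the call after saline was lost without saline hyperoxia 1 or 3 or saline room air 3 (estimates of -1.30 to -1.18). Cdc6, which loads Mcm rings on origins together with ORC and Cdt1, fell after ATG by edgeR (-1.63 (SE 0.30, adjusted p = 0.00244)). Its level averaged 4.05 ± 1.62 CPM in ATG hyperoxia lungs and 12.6 ± 3.15 CPM in ATG room air lungs (SD, n = 3 each). After saline the Cdc6 estimate was -0.82 (SE 0.29, adjusted p = 0.0958), which did not pass.

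The estimates for the ORC subunits were smaller. Orc2 (chr1:58462771-58505113) had the smallest of the 45 genes after ATG, with 23.8, 18.2 and 26.1 CPM in ATG hyperoxia lungs against 24.3, 27.5 and 25.03 CPM in ATG room air lungs, and 21.6, 20.9 and 24.05 CPM in saline hyperoxia lungs against 24.8, 24.4 and 26.9 CPM in saline room air lungs. The groups overlapped after ATG and were adjacent without overlap after saline. Orc2's log2 fold changes were -0.17 (SE 0.13, adjusted p = 0.463) after ATG and -0.19 (SE 0.13, adjusted p = 0.429) after saline by edgeR. Orc6 fell after ATG (-0.67 (SE 0.15, adjusted p = 0.0114)) but its call was lost without ATG hyperoxia 1 or 2 (estimates of -0.63 to -0.54), and it stood at -0.51 (SE 0.15, adjusted p = 0.0533) after saline. Orc1, the largest ORC subunit and one whose level follows the cell cycle in mammals, was at -0.92 (SE 0.31, adjusted p = 0.0697) after ATG and -0.42 (SE 0.30, adjusted p = 0.448) after saline and passed in neither comparison.

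Cdt1, the other Mcm loader, which is destroyed during S phase, passed in neither. It (chr8:122568015-122573130) had 11.6, 5.89 and 9.41 CPM in ATG hyperoxia lungs against 14.6, 12.9 and 17.6 CPM in ATG room air lungs, and 10.6, 10.8 and 11.1 CPM in saline hyperoxia lungs against 7.80, 13.2 and 18.3 CPM in saline room air lungs. The saline hyperoxia lungs were nearly equal, while the saline room air lungs spread on both sides of them. By edgeR its log2 fold change was -0.74 (SE 0.28, adjusted p = 0.101) after ATG and -0.27 (SE 0.28, adjusted p = 0.608) after saline, and without saline room air 3 the saline estimate was 0.05.

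The 6 Mcm subunits of the replicative helicase gave 6 of 6 lower after ATG and 5 of 6 after saline. Within each injection, the hyperoxia and the room air lungs did not overlap for any of them. Mcm6 (chr1:128331575-128359705) had the smallest adjusted p of the 45 genes after saline, with 48.9, 43.6 and 55.96 CPM in ATG hyperoxia lungs against 97.5, 75.2 and 105 CPM in ATG room air lungs, and 47.8, 52.2 and 46.5 CPM in saline hyperoxia lungs against 86.2, 88.3 and 97.9 CPM in saline room air lungs. Its log2 fold change by edgeR was -0.90 (SE 0.12, adjusted p = 0.0004) after ATG and -0.90 (SE 0.12, adjusted p = 0.000537) after saline, which is 53.5% and 53.8% of the room air level. Its promoter window, shown above, held the most matches to the E2F-type letters among the windows of the 38 genes. Matches that overlap on opposite strands were counted separately.

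Mcm4 (chr16:15623897-15637400), the subunit with the highest level per kb of exon, had 47.00, 36.4 and 57.9 CPM in ATG hyperoxia lungs against 98.9, 80.00 and 114 CPM in ATG room air lungs, and 46.1, 62.9 and 57.6 CPM in saline hyperoxia lungs against 79.3, 86.4 and 102 CPM in saline room air lungs. The lowest ATG hyperoxia lung was replicate 2, as for most of the genes. By edgeR Mcm4 changed by -1.05 (SE 0.17, adjusted p = 0.00115) after ATG and -0.69 (SE 0.17, adjusted p = 0.0207) after saline, and the call after saline was lost without saline hyperoxia 1 or 3 or saline room air 2 or 3 (estimates of -0.71 to -0.56). Mcm2, Mcm3 and Mcm5 had log2 fold changes of -0.83, -1.04 and -1.36 after ATG and -0.63, -0.77 and -0.91 after saline and passed in both, and the Mcm5 call after saline was lost without saline hyperoxia 1 or 3 or saline room air 1, 2 or 3 (estimates of -0.95 to -0.75). Mcm7 fell after ATG (-0.89 (SE 0.19, adjusted p = 0.00648)) and was at -0.59 (SE 0.19, adjusted p = 0.0646) after saline by edgeR.

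The rings hold equal numbers of the 6 subunits, while the levels of their transcripts per kb of annotated exon differed. Divided by the length of each gene's exons, the mean level in ATG hyperoxia lungs was 13.1 ± 2.99 CPM per kb for Mcm4, 12.3 ± 3.04 for Mcm3, 10.6 ± 1.33 for Mcm6, 6.05 ± 0.988 for Mcm2, 4.25 ± 1.58 for Mcm5 and 2.99 ± 0.193 for Mcm7 (SD, n = 3). In saline room air lungs the same order held, at 24.9 ± 3.27, 22.2 ± 1.40, 19.5 ± 1.34, 9.77 ± 1.02, 9.49 ± 0.705 and 5.22 ± 0.495 CPM per kb. Mcm4 and Mcm3 differed by less than the SD of Mcm4 in both groups, and so did Mcm2 and Mcm5 in saline room air lungs. The length joins all annotated exons of a gene, 6956 bases for Mcm2, and which transcripts were expressed was not tested. Without division by length, Mcm4, Mcm6, Mcm3 and Mcm2 averaged 72.4, 70.4, 68.4 and 57.2 CPM over the 12 libraries, and Mcm5 and Mcm7 29.7 and 19.1 CPM. Mcm7 hosts the microRNA genes Mir25 and Mir93 and shares exon bases with Ap4m1 and Cops6 on the other strand, so its level is uncertain.

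Cdc45 and the 4 GINS genes, which complete the helicase, gave 4 of 5 lower after ATG and 2 of 5 after saline. Gins2 (chr8:120581266-120589075) changed most, with 14.8, 7.96 and 14.3 CPM in ATG hyperoxia lungs against 39.1, 27.99 and 45.4 CPM in ATG room air lungs, and 14.00, 19.5 and 15.5 CPM in saline hyperoxia lungs against 35.3, 35.1 and 36.5 CPM in saline room air lungs. No lungs overlapped between hyperoxia and room air. The log2 fold change was -1.60 (SE 0.22, adjusted p = 0.000428) after ATG and -1.13 (SE 0.22, adjusted p = 0.00525) after saline by edgeR. Gins2 shares 2758 exon bases with Gse1 on the opposite strand and the strand used in counting is not given in the sources used here, so its level is uncertain. Cdc45 fell in both comparisons (-1.18 after ATG, -0.85 after saline), and its call after saline was lost without saline hyperoxia 1 or saline room air 1 or 3 (estimates of -0.79 to -0.66).

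Gins4, a subunit of the same complex, had the smallest estimates of the 5 genes. It (chr8:23226610-23237668) had 24.00, 23.8 and 25.3 CPM in ATG hyperoxia lungs against 31.6, 31.4 and 33.5 CPM in ATG room air lungs, and 26.3, 30.96 and 24.96 CPM in saline hyperoxia lungs against 36.01, 29.8 and 33.1 CPM in saline room air lungs. The lungs separated fully after ATG and overlapped after saline. By edgeR its log2 fold change was -0.40 (SE 0.11, adjusted p = 0.0324) after ATG, a call lost without ATG hyperoxia 1, 2 or 3, ATG room air 1, 2 or 3 or saline room air 3 (estimates of -0.42 to -0.36), and -0.27 (SE 0.11, adjusted p = 0.174) after saline. Per kb of exon Gins4 stood highest of the 4 GINS genes, at 18.1 ± 0.621 CPM per kb in ATG hyperoxia lungs and 24.4 ± 2.31 in saline room air lungs, where Gins2 had 3.01 ± 0.928 and 8.69 ± 0.198 CPM per kb (SD, n = 3). The annotated exons spanned 1349 bases for Gins4 and 4097 for Gins2. Without division by length, Gins4 and Gins2 averaged 24.4 and 12.3 CPM in ATG hyperoxia lungs, and 33.0 and 35.6 CPM in saline room air lungs. Gins1 fell after ATG (-1.14 (SE 0.32, adjusted p = 0.0294)), a call lost without ATG hyperoxia 2 or 3 or ATG room air 1 or 3 (estimates of -1.14 to -0.86), and was at -0.67 after saline. Gins3 passed in neither, at -0.71 after ATG and -0.77 after saline, both estimates larger than that of Gins4 but with an SE of 0.27.

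Of the clamp and its loader, 2 of 6 genes fell after ATG and 2 of 6 after saline. Pcna, the sliding clamp that holds the polymerases on DNA, had the smallest adjusted p of the 45 genes after ATG. It (chr2:132249286-132253180) stood at 49.3, 46.3 and 54.6 CPM in ATG hyperoxia lungs against 84.6, 88.00 and 90.9 CPM in ATG room air lungs, and at 53.2, 59.3 and 57.8 CPM in saline hyperoxia lungs against 74.00, 79.7 and 78.3 CPM in saline room air lungs. All groups were tight, and hyperoxia and room air were far apart. By edgeR the log2 fold change was -0.81 (SE 0.08, adjusted p = 5.46e-05) after ATG and -0.45 (SE 0.08, adjusted p = 0.00475) after saline.

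After ATG every loader subunit had a smaller estimate than the clamp it loads. Rfc1 (chr5:65261852-65338617), the large subunit, had 64.1, 61.4 and 73.6 CPM in ATG hyperoxia lungs against 87.1, 76.4 and 84.03 CPM in ATG room air lungs, and 71.9, 70.1 and 68.00 CPM in saline hyperoxia lungs against 74.7, 78.9 and 82.5 CPM in saline room air lungs. The hyperoxia lungs lay below the room air lungs by a narrow gap in both pairs. By edgeR its log2 fold change was -0.31 (SE 0.09, adjusted p = 0.0304) after ATG and -0.17 (SE 0.09, adjusted p = 0.275) after saline. The call after ATG was lost without ATG hyperoxia 1 or 2, ATG room air 1 or 3 or saline room air 2 (estimates of -0.30 to -0.25). Rfc2, Rfc4 and Rfc5 passed in neither, with -0.43, -0.70 and -0.61 after ATG and -0.27, -0.38 and -0.27 after saline.

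Rfc3 was the only loader gene past the threshold after saline. It (chr5:151642817-151651208) had 13.1, 10.4 and 12.7 CPM in ATG hyperoxia lungs against 15.4, 15.9 and 11.9 CPM in ATG room air lungs, and 6.95, 9.17 and 9.07 CPM in saline hyperoxia lungs against 10.4, 14.02 and 14.5 CPM in saline room air lungs. The lungs overlapped after ATG and were separate after saline. By edgeR its log2 fold change was -0.25 (SE 0.18, adjusted p = 0.432) after ATG and -0.63 (SE 0.19, adjusted p = 0.0498) after saline. That adjusted p lay just under the threshold, and the call was lost under 18 of 22 alternatives, limma-voom and RLE scaling among them. Among single libraries it was lost without ATG hyperoxia 1 or 3, saline hyperoxia 1, 2 or 3, ATG room air 1 or 2 or saline room air 2 or 3 (estimates of -0.69 to -0.50).

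Among the polymerase and primase genes, 5 of 9 fell after ATG and 5 of 9 after saline, with all 9 estimates negative in both comparisons. Pole, the catalytic subunit of polymerase epsilon, which copies the leading strand, changed most. It (chr5:110286319-110337468) had 22.3, 15.3 and 25.7 CPM in ATG hyperoxia lungs against 69.2, 40.3 and 70.2 CPM in ATG room air lungs, and 18.7, 29.7 and 25.3 CPM in saline hyperoxia lungs against 49.01, 52.4 and 63.9 CPM in saline room air lungs. Hyperoxia and room air lungs were separate, with ATG room air 2 well under the other ATG room air lungs. The log2 fold change was -1.51 (SE 0.23, adjusted p = 0.000823) after ATG and -1.17 (SE 0.23, adjusted p = 0.00601) after saline by edgeR. Its partner Pole2 fell by 1.18 after ATG and 0.74 after saline on the log2 scale, and the call after saline was lost without saline hyperoxia 1 or 2 or saline room air 1, 2 or 3 (estimates of -0.74 to -0.62).

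Polymerase alpha and primase, which lay down the primers, gave 2 of 4 genes past the threshold in both comparisons and negative estimates for all 4. Pola1, the catalytic subunit, averaged 25.97 ± 2.63 CPM in ATG hyperoxia lungs and 46.8 ± 10.7 CPM in ATG room air lungs, and 26.2 ± 2.95 CPM in saline hyperoxia lungs and 41.2 ± 3.94 CPM in saline room air lungs (SD, n = 3 each). It fell by edgeR after ATG (-0.85 (SE 0.16, adjusted p = 0.00268)) and after saline (-0.65 (SE 0.16, adjusted p = 0.0173)), with the saline call lost without saline hyperoxia 1 or saline room air 3 (estimates of -0.58 to -0.56). Prim1, the catalytic subunit of primase, also fell in both (-1.04 after ATG and -0.76 after saline), with the saline call lost without saline hyperoxia 1, 2 or 3, ATG room air 3 or saline room air 1, 2 or 3 (estimates of -0.85 to -0.55). The accessory subunits Pola2 and Prim2 passed in neither, and the difference from Pola1 and Prim1 was not tested. Pola2 (chr19:5940543-5964238) had 12.3, 11.05 and 11.6 CPM in ATG hyperoxia lungs against 14.7, 16.01 and 13.95 CPM in ATG room air lungs, and 7.56, 13.2 and 12.97 CPM in saline hyperoxia lungs against 16.2, 12.5 and 15.6 CPM in saline room air lungs. Only after saline did the lungs overlap, and its log2 fold changes were -0.35 (SE 0.19, adjusted p = 0.281) after ATG and -0.39 (SE 0.19, adjusted p = 0.249) after saline by edgeR. Prim2 was at -0.56 after ATG and -0.45 after saline.

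For polymerase delta, which makes the lagging strand, the catalytic subunit Pold1 fell after ATG (-0.80 (SE 0.17, adjusted p = 0.00605)) and was at -0.36 (SE 0.16, adjusted p = 0.212) after saline by edgeR. Its partner Pold2 was past the threshold after saline (-0.57 (SE 0.16, adjusted p = 0.0371)) and was at -0.33 after ATG, and its call was lost without ATG hyperoxia 1, saline hyperoxia 1 or 3, ATG room air 1 or 3 or saline room air 1, 2 or 3 (estimates of -0.61 to -0.42). Another subunit, Pold3 (chr7:100082110-100121502), had 23.3, 20.9 and 20.4 CPM in ATG hyperoxia lungs against 31.6, 25.4 and 28.03 CPM in ATG room air lungs, and 15.5, 22.4 and 24.8 CPM in saline hyperoxia lungs against 22.9, 24.1 and 28.3 CPM in saline room air lungs. The saline lungs overlapped, and Pold3 passed in neither comparison (-0.40 (SE 0.16, adjusted p = 0.136) after ATG and -0.27 (SE 0.16, adjusted p = 0.363) after saline by edgeR).

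**Figure D3:**
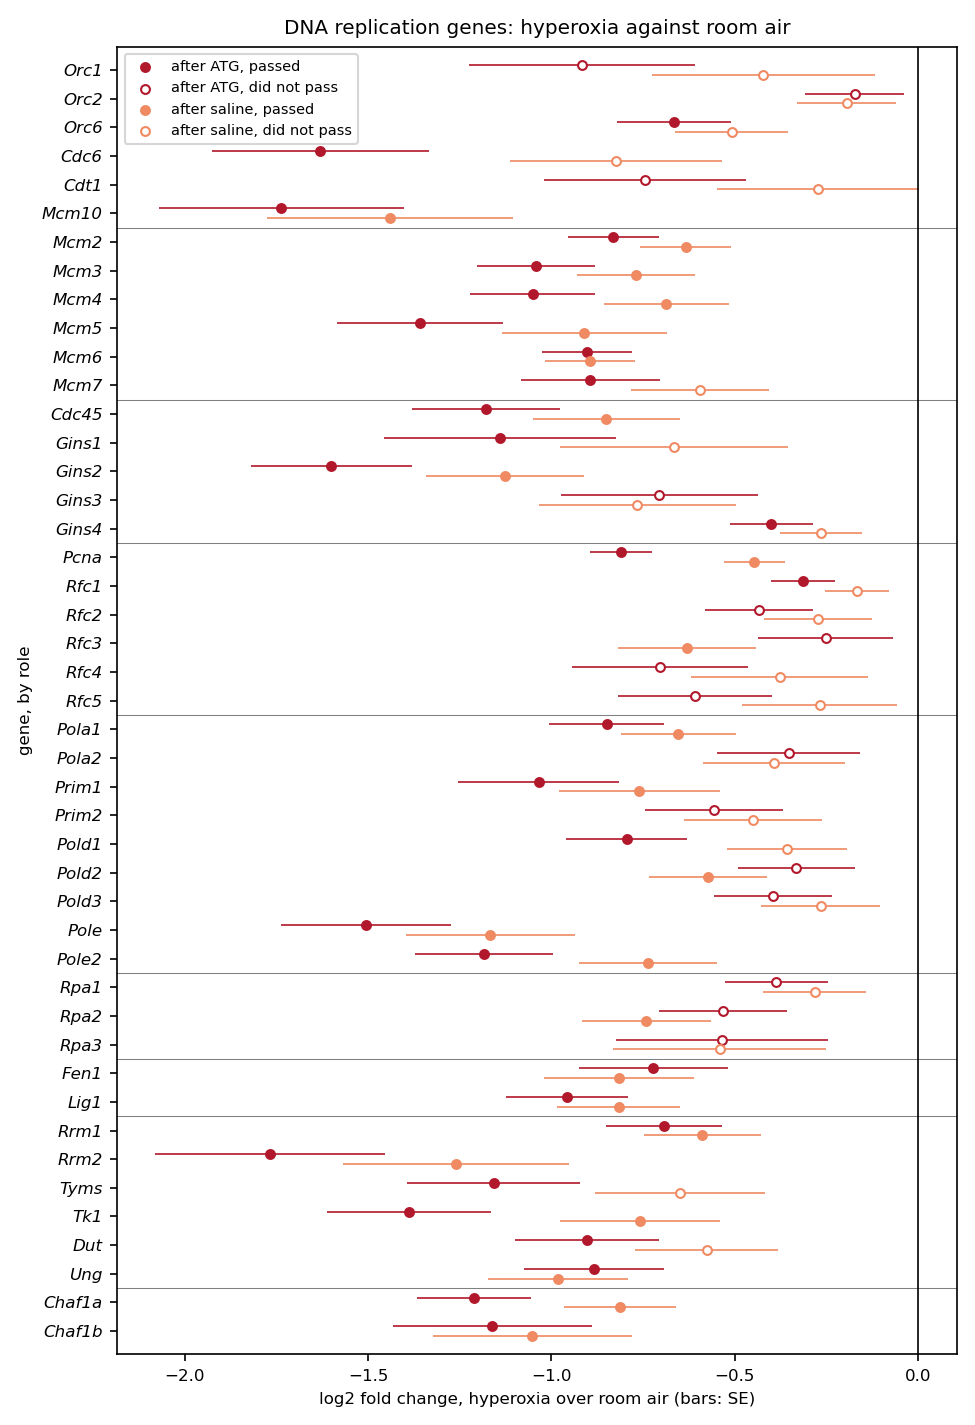
Log2 fold change of hyperoxia over room air for the 45 DNA replication genes, by role, after ATG (dark red, upper mark) and after saline (orange, lower mark), with SE bars; filled marks passed an adjusted p of 0.05. All estimates are below 0, from -1.77 for Rrm2 after ATG to -0.17 for Rfc1 after saline and Orc2 after ATG.

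Replication protein A (RPA) coats the single strands exposed at a fork and also serves in DNA repair, and its 3 genes gave 0 of 3 past the threshold after ATG and 1 of 3 after saline by edgeR. After ATG 2 of the 3 had an unadjusted p under 0.05, DESeq2 called 1 and limma-voom 0. Rpa2 (chr4:132768360-132778746) had 12.4, 12.4 and 15.3 CPM in ATG hyperoxia lungs against 19.99, 19.4 and 18.6 CPM in ATG room air lungs, and 10.2, 16.4 and 10.4 CPM in saline hyperoxia lungs against 21.97, 20.7 and 19.2 CPM in saline room air lungs. Saline hyperoxia 2 stood above the other saline hyperoxia lungs, and no lungs overlapped between hyperoxia and room air. The log2 fold change was -0.53 (SE 0.17, adjusted p = 0.0643) after ATG and -0.74 (SE 0.18, adjusted p = 0.0164) after saline by edgeR, and the call after saline was lost without saline hyperoxia 1 or 3 or saline room air 1 or 2 (estimates of -0.73 to -0.62).

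Rpa1 (chr11:75300259-75348454), the large subunit that grips the DNA, had 56.3, 42.6 and 56.7 CPM in ATG hyperoxia lungs against 66.8, 58.9 and 77.7 CPM in ATG room air lungs, and 48.5, 57.2 and 53.03 CPM in saline hyperoxia lungs against 58.7, 57.95 and 76.2 CPM in saline room air lungs. The hyperoxia lungs were below the room air lungs in both pairs, by a narrow gap. Its log2 fold change was -0.39 (SE 0.14, adjusted p = 0.0912) after ATG and -0.28 (SE 0.14, adjusted p = 0.25) after saline by edgeR, so neither passed. Rpa3 (chr6:8255936-8259141), the small subunit, had 2.98, 2.75 and 3.35 CPM in ATG hyperoxia lungs against 4.41, 5.25 and 3.53 CPM in ATG room air lungs, and 3.40, 3.41 and 2.13 CPM in saline hyperoxia lungs against 3.29, 4.84 and 4.90 CPM in saline room air lungs. The saline lungs of Rpa3 overlapped, and its estimates were -0.54 (SE 0.29, adjusted p = 0.272) after ATG and -0.54 (SE 0.29, adjusted p = 0.292) after saline by edgeR.

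Both genes of Okazaki fragment joining fell after both injections. Lig1 (chr7:13277175-13311426), the ligase that seals the fragments, had 37.01, 25.7 and 35.9 CPM in ATG hyperoxia lungs against 69.8, 51.1 and 70.8 CPM in ATG room air lungs, and 31.6, 42.8 and 29.8 CPM in saline hyperoxia lungs against 62.4, 57.1 and 64.2 CPM in saline room air lungs. The lowest room air lung, ATG room air 2, was above the highest hyperoxia lung, saline hyperoxia 2. The log2 fold change of Lig1 was -0.96 (SE 0.17, adjusted p = 0.00183) after ATG and -0.82 (SE 0.17, adjusted p = 0.00729) after saline by edgeR. Fen1, the flap nuclease that trims the fragments, was at -0.72 (SE 0.20, adjusted p = 0.0322) after ATG and -0.82 (SE 0.20, adjusted p = 0.0218) after saline. The Fen1 call after ATG was lost without ATG hyperoxia 2 or 3 or ATG room air 1 or 3 (estimates of -0.75 to -0.51), and the call after saline without saline hyperoxia 1, 2 or 3 or saline room air 1 or 3 (estimates of -0.85 to -0.77).

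Of the genes that supply nucleotides or remove uracil from DNA, 6 of 6 fell after ATG and 4 of 6 after saline. Rrm1 and Rrm2 form ribonucleotide reductase, which makes the deoxynucleotides, and Rrm2 is the subunit tied to S phase. Rrm1 (chr7:102441695-102469771) had 70.00, 55.6 and 78.4 CPM in ATG hyperoxia lungs against 109.6, 95.5 and 125 CPM in ATG room air lungs, and 51.2, 80.1 and 65.4 CPM in saline hyperoxia lungs against 93.3, 91.1 and 111 CPM in saline room air lungs. Hyperoxia and room air lungs were separate after both injections. Its log2 fold change was -0.69 (SE 0.16, adjusted p = 0.0105) after ATG and -0.59 (SE 0.16, adjusted p = 0.032) after saline by edgeR. The Rrm1 call after ATG was lost without ATG room air 3 (estimate of -0.58) and that after saline without saline hyperoxia 1 or 3 or saline room air 1, 2 or 3 (estimates of -0.64 to -0.43).

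Rrm2 had larger estimates than its partner and the largest fall of the 45 genes after ATG. It (chr12:24708254-24714146) had 25.1, 12.7 and 30.7 CPM in ATG hyperoxia lungs against 90.9, 51.3 and 91.4 CPM in ATG room air lungs, and 20.6, 42.01 and 31.4 CPM in saline hyperoxia lungs against 61.2, 70.4 and 92.9 CPM in saline room air lungs. No lungs overlapped between hyperoxia and room air. By edgeR the log2 fold change was -1.77 (SE 0.31, adjusted p = 0.00202) after ATG and -1.26 (SE 0.31, adjusted p = 0.0192) after saline, or 29.4% and 41.8% of the room air level. The call after saline was lost without saline hyperoxia 1 or 3 or saline room air 3 (estimates of -1.26 to -1.02).

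Rrm2b, a subunit that replaces Rrm2 outside S phase and is induced by p53 in other settings, is outside the 45 genes and gave the contrast to Rrm2. It (chr15:37923952-37961119) had 35.9, 33.9 and 48.2 CPM in ATG hyperoxia lungs against 40.05, 42.5 and 45.6 CPM in ATG room air lungs, and 42.1, 41.1 and 43.3 CPM in saline hyperoxia lungs against 41.96, 37.2 and 46.3 CPM in saline room air lungs. The groups overlapped in both pairs, and its log2 fold changes were -0.12 (SE 0.13, adjusted p = 0.626) after ATG and 0.01 (SE 0.13, adjusted p = 0.974) after saline by edgeR. The ratio of Rrm2b to Rrm2 within a library was 1.43 to 2.67 in ATG hyperoxia lungs, 0.978 to 2.05 in saline hyperoxia lungs, 0.440 to 0.828 in ATG room air lungs and 0.499 to 0.686 in saline room air lungs. This ratio was chosen after the levels of both genes were seen, so it is given as a description and no test result is reported for it.

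**Figure D4:**
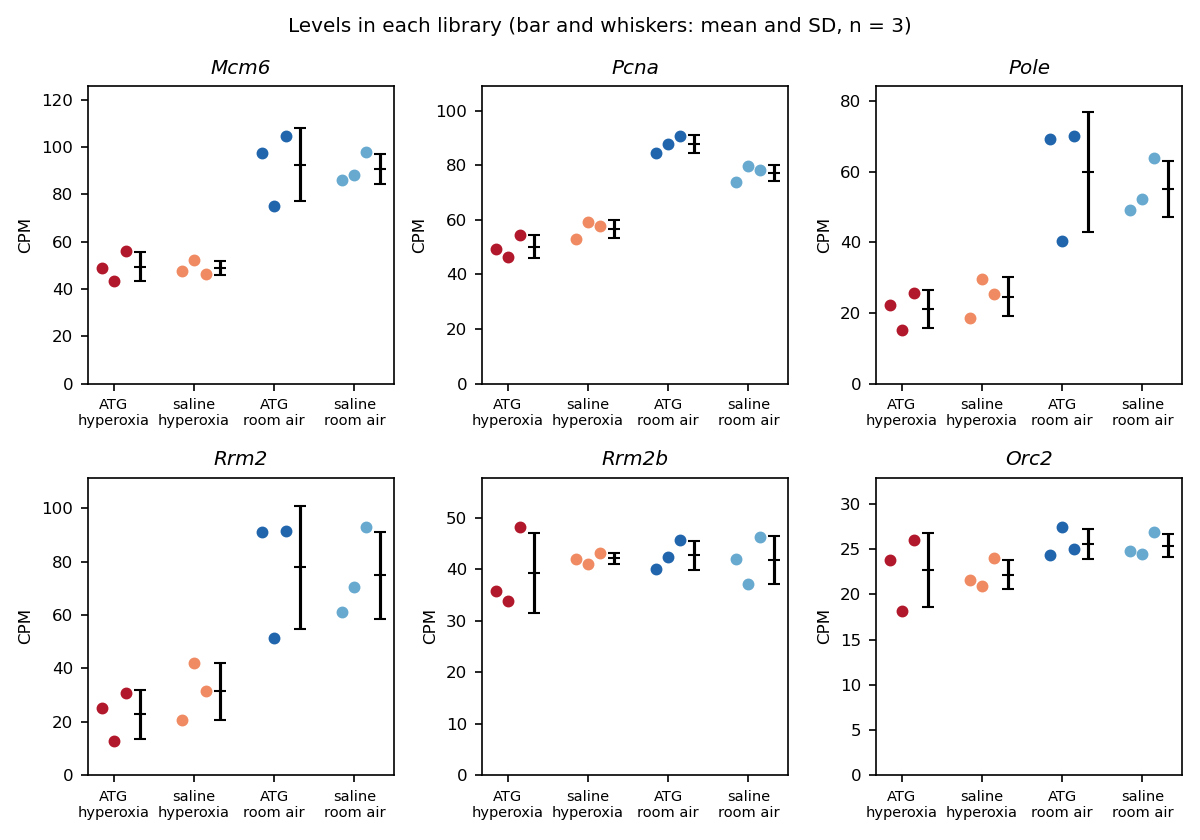
Levels (CPM, y axis from 0) of Mcm6, Pcna, Pole, Rrm2, Rrm2b and Orc2 in each of the 12 lungs by group, as points, with the mean and SD (n = 3) beside them. The hyperoxia points of Mcm6, Pcna, Pole and Rrm2 lie below their room air points, while the points of Rrm2b overlap across groups and those of Orc2 lie close together.

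Ung (chr5:114130366-114139321), the glycosylase that removes uracil from DNA, had 9.32, 7.46 and 10.05 CPM in ATG hyperoxia lungs against 18.3, 14.3 and 16.9 CPM in ATG room air lungs, and 9.57, 9.93 and 6.15 CPM in saline hyperoxia lungs against 15.9, 17.9 and 16.96 CPM in saline room air lungs. All hyperoxia lungs were below all room air lungs. Ung had a log2 fold change of -0.88 (SE 0.19, adjusted p = 0.00722) after ATG and -0.98 (SE 0.19, adjusted p = 0.00568) after saline by edgeR. Dut, which keeps uracil out by destroying dUTP, fell after ATG (-0.90 (SE 0.20, adjusted p = 0.00745)) and was at -0.58 after saline. Tyms, which makes thymidylate, likewise fell after ATG (-1.16) and was at -0.65 after saline, but a pseudogene, Tyms-ps, is also in the table, so its level is uncertain. Tk1, the thymidine kinase of the S phase salvage route, fell in both (-1.39 after ATG and -0.76 after saline), with the saline call lost without saline hyperoxia 1 or 3, ATG room air 1 or 3 or saline room air 1, 2 or 3 (estimates of -0.80 to -0.60).

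The 2 subunits of chromatin assembly factor 1, which places new histones behind the fork, fell after both injections. Chaf1a (chr17:56040416-56068026) had 15.8, 12.6 and 15.4 CPM in ATG hyperoxia lungs against 34.7, 32.4 and 34.5 CPM in ATG room air lungs, and 16.5, 22.4 and 18.8 CPM in saline hyperoxia lungs against 26.9, 36.5 and 38.1 CPM in saline room air lungs. Hyperoxia and room air lungs were separate, and the ATG hyperoxia lungs were also all below the saline hyperoxia lungs. By edgeR the log2 fold change was -1.21 (SE 0.15, adjusted p = 0.00026) after ATG and -0.81 (SE 0.15, adjusted p = 0.00461) after saline. Chaf1a shares 2542 exon bases with Ubxn6 on the opposite strand and is uncertain for that reason. Chaf1b was at -1.16 (SE 0.27, adjusted p = 0.0118) after ATG and -1.05 (SE 0.27, adjusted p = 0.0252) after saline. The Chaf1b call after ATG was lost without ATG room air 3 (estimate of -0.90), and that after saline without saline hyperoxia 1 or 3 or saline room air 1 or 3 (estimates of -1.10 to -0.86).

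No replication gene differed past the threshold between ATG and saline lungs in either atmosphere. In hyperoxia 0 of the 45 genes passed by edgeR, where 0% of all tested genes were lower and 0.00634% higher, and 4 of the 45 had an unadjusted p under 0.05, against 5.69% of all tested genes. Those 4 were Rfc3, Tk1, Chaf1a and Pold1. DESeq2 and limma-voom also called 0 of the 45 genes, with 4 and 3 genes at an unadjusted p under 0.05. The median log2 fold change of ATG over saline in hyperoxia was -0.10 for the 45 genes, with 32 negative and 13 positive estimates from -0.61 for Tk1 to 0.52 for Rfc3, and the median over all tested genes was 0.00. The ATG hyperoxia lungs lay below all saline hyperoxia lungs for Pold1 and Chaf1a (5.54% of all tested genes did so) and above them for Rfc3 (5.55% of all tested genes).

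Rfc3 had the smallest p in hyperoxia. Its 13.1, 10.4 and 12.7 CPM in ATG hyperoxia lungs lay above the 6.95, 9.17 and 9.07 CPM of the saline hyperoxia lungs, a log2 fold change of 0.52 (SE 0.19) with an unadjusted p of 0.0141 and an adjusted p of 0.752 by edgeR. Tk1 averaged 11.8 ± 2.80 CPM in ATG hyperoxia lungs and 18.1 ± 5.73 CPM in saline hyperoxia lungs (SD, n = 3 each), with a log2 fold change of -0.61 (SE 0.22) and an adjusted p of 0.762 by edgeR.

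In room air 0 of the 45 genes passed by edgeR, where 0% of all tested genes passed in either direction, and 1 gene, Pcna, had an unadjusted p under 0.05, against 6.02% of all tested genes. DESeq2 and limma-voom called 0 of the 45, with 0 and 1 genes at an unadjusted p under 0.05. Estimates were positive for 38 genes and negative for 7, with a median of 0.07 and 0.01 over all tested genes. Pcna had 84.6, 88.00 and 90.9 CPM in ATG room air lungs, all above the 74.00, 79.7 and 78.3 CPM of the saline room air lungs, as was Pole2, and Pold2 lay below. Such full separation was found for 6.26% of all tested genes above and 5.72% below. The log2 fold change of Pcna was 0.18 (SE 0.08, adjusted p = 0.827 by edgeR).

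**Figure D5:**
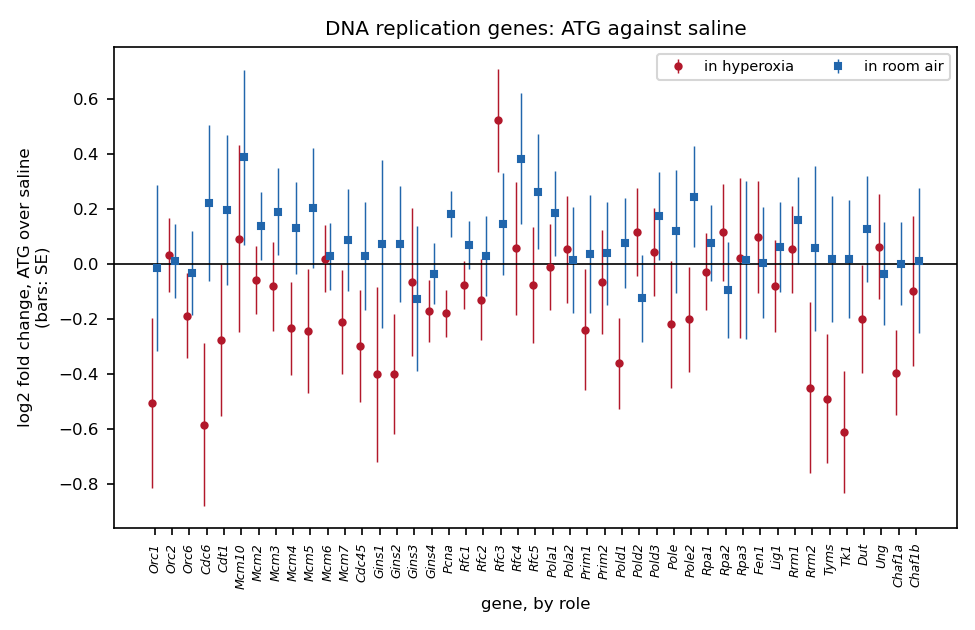
Log2 fold change of ATG over saline (y axis, SE bars) for each of the 45 DNA replication genes (x axis, by role), in hyperoxia (red circles) and in room air (blue squares). The estimates lie between -0.61 and 0.52 in hyperoxia and between -0.13 and 0.39 in room air, and none passed the test.

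The interaction asks whether hyperoxia changed a gene by a different amount after ATG than after saline. By edgeR 0 of the 45 genes passed it, as did 0% of all tested genes in each direction, and 1 of the 45, Pcna, had an unadjusted p under 0.05, against 2.95% of all tested genes. DESeq2 and limma-voom called 0 of the 45, with 2 and 1 at an unadjusted p under 0.05. The estimates were negative, a larger fall after ATG, for 36 genes and positive for 9, with a median of -0.27, against -0.01 over all tested genes. For Pcna the interaction was -0.36 (SE 0.12, unadjusted p = 0.00825, adjusted p = 1 by edgeR), from a fall of 0.81 after ATG and 0.45 after saline. The ATG comparisons and the interaction use the same libraries as the hyperoxia comparisons, and the ATG hyperoxia lung lowest for 40 of the 45 genes is also the one with the most cardiac transcripts. Without that lung, as with it, 0 of the 45 genes passed in the ATG comparisons or the interaction.

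Other genes of the same pathway, listed by role, were counted in the hyperoxia comparisons, where 6.25% of all tested genes fell after ATG and 4.5% after saline. Of 16 further regulators of licensing and firing, 7 fell after ATG and 6 after saline. They included Topbp1, a scaffold needed to fire origins (-0.72 after ATG and -0.64 after saline), Dtl, which marks Cdt1 for destruction (-1.30 and -1.06), Fbxo5, an inhibitor of the ubiquitin ligase APC/C (-1.44 and -1.05), and Donson, which helps GINS reach the helicase (-0.60 and -0.63). Of 21 fork factors, 10 fell after ATG and 7 after saline, led by Pclaf, a partner of Pcna (-1.92 after ATG and -1.53 after saline). With it fell the topoisomerase Top2a (-1.85 and -1.46), the checkpoint mediator Clspn (-1.67 and -1.14) and the ubiquitin ligase Rad18, which modifies Pcna (-1.19 and -0.73). Of the calls after saline, that of Dtl was lost without saline hyperoxia 3 or saline room air 3 (estimate of -0.97), that of Fbxo5 without saline hyperoxia 1 or saline room air 3 (estimates of -0.95 to -0.89), that of Clspn without saline hyperoxia 1 or saline room air 3 (estimates of -1.07 to -0.88) and that of Rad18 without saline hyperoxia 1 or 3 or saline room air 3 (estimates of -0.68 to -0.61). The Donson call was lost after saline without saline hyperoxia 1 or 3 or saline room air 1, 2 or 3 (estimates of -0.67 to -0.48) and after ATG without ATG hyperoxia 1 or 2, saline hyperoxia 3, ATG room air 1, 2 or 3 or saline room air 1, 2 or 3 (estimates of -0.63 to -0.51).

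Of the genes that place or mark chromatin at the fork, 9 of 13 fell after ATG and 9 of 13 after saline. Uhrf1, which guides maintenance DNA methylation, was at -1.47 after ATG and -1.05 after saline, Slbp, which binds histone mRNA, at -0.60 and -0.75, and the histone chaperones Asf1b and Nasp at -1.40 and -1.25 and at -1.12 and -0.82. After saline the calls of Asf1b and Nasp were lost without saline room air 3 (estimate of -1.04) and without saline hyperoxia 3 or saline room air 3 (estimates of -0.68 to -0.65), in that order. Of 17 further nucleotide supply genes, 2 fell after ATG and 1 after saline, against 6.25% and 4.5% of all tested genes. The medians of those 17 genes were -0.10 after ATG and 0.01 after saline.

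Among the genes that govern entry into S phase, 30 of 31 were tested. After ATG 11 fell and 1 rose, and after saline 10 fell and 1 rose. Among all tested genes 6.25% fell and 5.41% rose after ATG, and 4.5% fell and 4.7% rose after saline. The listed gene that rose was Cdkn1a, which encodes the kinase inhibitor p21, a protein that also binds Pcna. Cdkn1a stood at 1385, 580.4 and 1079 CPM in ATG hyperoxia lungs against 134, 168 and 135 CPM in ATG room air lungs, and at 678, 974 and 1275 CPM in saline hyperoxia lungs against 126, 128 and 131 CPM in saline room air lungs. The 2 conditions were far apart, with a log2 fold change of 2.80 (SE 0.27, adjusted p = 2.5e-05) after ATG and 2.93 (SE 0.27, adjusted p = 2.4e-05) after saline by edgeR.

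E2f1, an activating E2F factor, fell in both, at -0.96 (SE 0.16, adjusted p = 0.00119) after ATG and -0.52 (SE 0.16, adjusted p = 0.0494) after saline by edgeR, the call after saline being lost under 12 of 22 alternatives and, among single libraries, without ATG hyperoxia 1 or 3, saline hyperoxia 1, 2 or 3, ATG room air 1 or 3 or saline room air 2 or 3 (estimates of -0.60 to -0.42). The repressor E2f8 was at -1.64 after ATG and -1.23 after saline, and the cyclins Ccne1 and Ccna2 were at -1.43 and -1.98 after ATG and -0.996 and -1.70 after saline. Rb1, the retinoblastoma gene, did not pass, with 69.7 ± 8.80 CPM in ATG hyperoxia lungs and 69.3 ± 5.89 CPM in ATG room air lungs, and 72.4 ± 7.12 CPM in saline hyperoxia lungs and 67.9 ± 5.21 CPM in saline room air lungs (SD, n = 3 each). Its log2 fold changes were 0.01 after ATG and 0.09 after saline.

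Mitosis genes had larger falls on the median than the DNA replication genes: 20 of 20 fell after ATG with a median of -1.87 and 19 of 20 after saline with a median of -1.58, and the difference between the lists was not tested. Mki67, the proliferation marker, was at -2.14 after ATG and -1.63 after saline. The mitotic kinases Aurkb and Cdk1, the spindle checkpoint gene Bub1b and the cytokinesis motor Kif23 were at -2.04, -1.66, -1.44 and -1.74 after ATG and -1.43, -1.45, -1.57 and -1.62 after saline. Summed, the mitosis genes held 335 to 597 CPM in ATG hyperoxia lungs and 450 to 899 CPM in saline hyperoxia lungs, against 1295 to 2491 CPM in ATG room air lungs and 1606 to 2500 CPM in saline room air lungs, with no overlap between hyperoxia and room air.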

How the data were processed

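The authors deposited raw counts per gene symbol for the 12 libraries, each library in its own column. The submitters' processing notes list Bowtie2, Cufflinks, DESeq and mm10 and give no versions. How reads were counted, with which annotation and with what use of strand, is not given in the sources used here. Genes whose exons overlap a gene on the other strand are therefore called uncertain: besides those named in the text, these are Orc2, Orc6, Rfc2, Rfc4, Rfc5, Fen1 and Tk1. The Ovation RNA-Seq System V2 amplified the RNA before libraries were made with Nextera XT, per the labels' protocols, so reads are not independent molecules.

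Genes were kept by filterByExpr (minimum count 10, minimum total 15), which held 99.96% of the counts. After TMM scaling, edgeR 4.0.16 fitted a mean for each of the 4 groups to the 12 libraries (glmQLFit and glmQLFTest, 8 residual degrees of freedom, R 4.3.3, common biological coefficient of variation 18.7%). P-values are two-sided and adjusted by Benjamini-Hochberg over all 15761 genes, with a threshold of 0.05. Contrasts were hyperoxia against room air after each injection, ATG against saline in each atmosphere, and their interaction. The SE is the log2 fold change divided by the square root of the F statistic. Replicates of a group differed by more than sampling noise (chi-square per degree of freedom 7.02 to 43.9). Alternatives were DESeq2 1.42.0, limma-voom (limma 3.58.1), RLE size factors, no filter, the replicate number as a block, fits of only the groups compared, thymocyte transcripts or sex as a covariate, libraries with muscle transcripts left out, and each library left out in turn. The script was tested on simulated data.

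Gene positions come from RefSeq (GRCm38.p6) and exon lengths from GENCODE on GRCm38, the assembly that mm10 names, and a position spans exons and introns of a protein-coding gene. Values in each library are given for the gene with the smallest larger-of-both adjusted p and the gene with the highest level in each role, the gene with the smallest p in each ATG contrast, and the 5 genes with the largest p among those past the threshold in neither hyperoxia comparison. Rrm2 was added after its values were seen. From the other lists up to 4 genes with the smallest adjusted p are named, with Rrm2b, E2f1, Cdkn1a, Mki67 and Rb1. The genes and lists were chosen with earlier results of these data known. Values of 1 listed nucleotide supply gene are not reported here.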

Additional observations from a re-analysis of the deposited data

How the results depend on the processing

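The direction of the 45 genes held widely, while the number past the threshold after saline did not. After ATG 30 genes fell, with 24 to 31 when a single library was left out and 26 to 34 under the other alternatives. After saline 24 fell, with 9 to 26 when a single library was left out and 14 to 29 under the other alternatives, the 14 coming from the fit without saline hyperoxia 1, saline hyperoxia 2 and ATG hyperoxia 2, which has fewer samples. Over all tested genes, 709 fell after saline, with 330 to 837 when a single library was left out and 354 in that fit. No alternative called any of the 45 genes higher in hyperoxia, or called any in the ATG contrasts or the interaction. All 45 estimates stayed negative under every alternative, except that of Cdt1 after saline, which was 0.049 without saline room air 3 and -0.529 to 0.049 over the libraries left out in turn. Among other genes named, estimates near 0 changed sign without passing: Rrm2b after ATG was 0.0041 without saline hyperoxia 1, saline hyperoxia 2 and ATG hyperoxia 2, and Rrm2b after saline was -0.0207 with the thymocyte covariate, -0.0824 with the sex covariate and -0.0608 to 0.0968 with single libraries left out. Rb1 after ATG was -0.00702 with the thymocyte covariate and -0.0797 to 0.103 with single libraries left out. The cause was not tested. No pairing by replicate number was seen: same-number libraries correlated at -0.156 to 0.28 in their deviations, above 0.1 in 2 of 18 pairs. Whether same-number libraries shared a litter or a batch was not tested. With the replicate block, 29 genes fell after ATG and 21 after saline. With 3 lungs per group, small differences between ATG and saline lungs cannot be told from none, and whole-lung RNA does not say which cells the counts come from.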
